A study of Mus musculus with 12 samples.

Results

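The regions described are 301 places in mouse thymocytes where ChIP-seq for ZFAT gave a peak in acetylated chromatin that was called against one control library and not against the other. They are 301 of the 2000 ZFAT peaks that the authors called in B6 thymocytes against input. They were chosen by position in the deposited lists: each shares 1 bp or more with a peak of the H3K9ac/K27ac mark (acetyl groups on lysines 9 and 27 of histone H3) in floxed thymocytes, and no base with any of the B6 ZFAT peaks called against IgG. The question put to them is whether they look like weak ZFAT sites or like background at open chromatin. Values that bear on both readings are given side by side, and the part of each in the calls was not tested.

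The series holds 12 ChIP-seq and control samples of thymocytes (T cells still maturing in the thymus) taken from mice 4 to 5 weeks old. Chromatin was crosslinked for 10 min in 1% formaldehyde, cut for 0.5 h by 375 units of MNase and sonicated. The ZFAT libraries came from B6 thymocytes, the B6 label being usual shorthand for the C57BL/6 strain, from Zfatf/f-LckCre thymocytes (called Lck-Cre here) and from Zfatf/f thymocytes (called floxed here), and H3K9ac/K27ac was profiled in the Lck-Cre and the floxed cells. Histone H3 trimethylated at lysine 9 (H3K9me3) was profiled in the floxed cells only. Each ChIP group was 1 library, so every comparison sets libraries beside each other, no p-value is given, and the exact Clopper-Pearson 95% intervals of shares cover counting error only. Both genotypes other than B6 carry the Zfatf/f alleles, and the Cre of the Lck-Cre line, named for the T-lineage gene Lck, is designed to delete floxed sequence in T-lineage cells only. The labels do not say how many animals gave each library, and ZFAT loss in the Lck-Cre cells was not checked here. B6 mice do not carry the floxed allele by name, so the B6 and floxed libraries differ in genotype as well as in depth.

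ZFAT is a nuclear protein with zinc fingers and an AT-hook, a short motif that can hold AT-rich DNA, and it is known in mice for a role in the survival and development of T cells. Acetylation of H3 at lysine 9 and lysine 27 marks active promoters and enhancers, where nucleosomes are acetylated and the DNA is accessible. In ChIP-seq such accessible chromatin can be recovered by any antibody, or by none, to a degree that the controls are meant to measure: input is the chromatin before precipitation, and IgG is chromatin taken down by an antibody with no intended target.

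In the authors' lists each peak has a P score, which is −log10 of the caller's p, and a fold of ChIP over local control. These together fix the number of ZFAT fragments piled up at the summit (the pileup, in fragments) and the scaled local control level set against it (the background, in ZFAT-library fragments). The background can come from the summit, from the average of a wider window around it or from the lowest level of the list. The inferred depth of the B6 ZFAT library was 632000 fragments, against 1508000 for floxed ZFAT and 1350000 for Lck-Cre ZFAT. The acetylation libraries held about 1343000 fragments in Lck-Cre and 2191000 in floxed thymocytes. All positions are in the mouse build mm9, and no gene is named because no annotation of that build was used here. For the same reason the cell type was not checked against marker genes.

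Of the 2000 B6 peaks called against input, 384 (19.2%) lay in floxed acetylation and 290 (14.5%) overlapped an IgG-called peak. Both shares were used to choose the regions and are given as a description. They leave 301 acetylated peaks called against input only, set below beside 83 acetylated peaks called against both controls, 1409 unacetylated peaks called against input only and 207 unacetylated peaks called against both.

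The 301 acetylated input-only peaks were small beside the acetylated peaks called against both controls, but not beside the whole B6 list. Their pileup was 3 fragments at the lowest, 8 at the median and 30 at the highest, against 4, 22 and 170 in the 67 acetylated peaks called against both controls whose pileup could be recovered. The other 16 peaks called against both controls sat at the ceiling of the P score, where the pileup is not known. The 1409 unacetylated input-only peaks had a median pileup of 5. Where the pileup was known, the median was 6 in the whole B6 list and 4 in the unacetylated peaks called against both controls. By pileup, 72 of the 301 peaks held 3 to 5 fragments, 79 held 6 to 8, 92 held 9 to 12, 55 held 13 to 20 and 3 held more than 20. A peak of 8 fragments is thus typical of the group, and the acetylated peaks called against both controls extend far above its range while overlapping its lower end. Pileup, fold, P score and length come from a list that the rule used and are given as a description. A higher pileup passes a call against IgG more easily, so the gap to the peaks called against both controls follows in part from the choice.

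The authors' fold over input had a median of 5.71 in the acetylated input-only peaks, with a lowest value of 3.02 and a highest of 17.8. The median was 11.3 in the acetylated peaks called against both controls, 5.59 in the unacetylated input-only peaks and 5.60 in the whole B6 list. P scores of the acetylated input-only peaks ranged over 5.05 to 38.2 with a median of 8.57, near the 8.58 of the whole B6 list. Lengths had a median of 182 bp in the acetylated input-only peaks, against 333 bp in the acetylated peaks called against both controls and 170 bp in the unacetylated input-only peaks. Most of the 301 are therefore little longer than the 150 bp fragment length that the authors gave the caller.

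Input fragments were also found at many of these regions. The input background comes from a list that the rule used, so it is given as a description. The inferred input background had a median of 0.373 scaled fragments at the acetylated input-only peaks, against 1.30 at the acetylated peaks called against both controls and 0.068 at the unacetylated input-only peaks. Its quartiles at the 301 peaks were 0.102 and 1.12, and its highest value was 5.96. In this list 1 input fragment at the summit is worth 0.373, so 181 of the 301 regions had a background equal to 1 input fragment or more and 120 had less. The acetylated input-only peaks thus stood on a higher input level than unacetylated peaks of like fold and on a lower one than the acetylated peaks called against both controls. The call itself ties background to pileup: a pileup of 8 passes only below a background of 1.32. The median pileups of these sets were 8, 5 and 22, so part of this order follows from the calls.

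**Figure D1:**
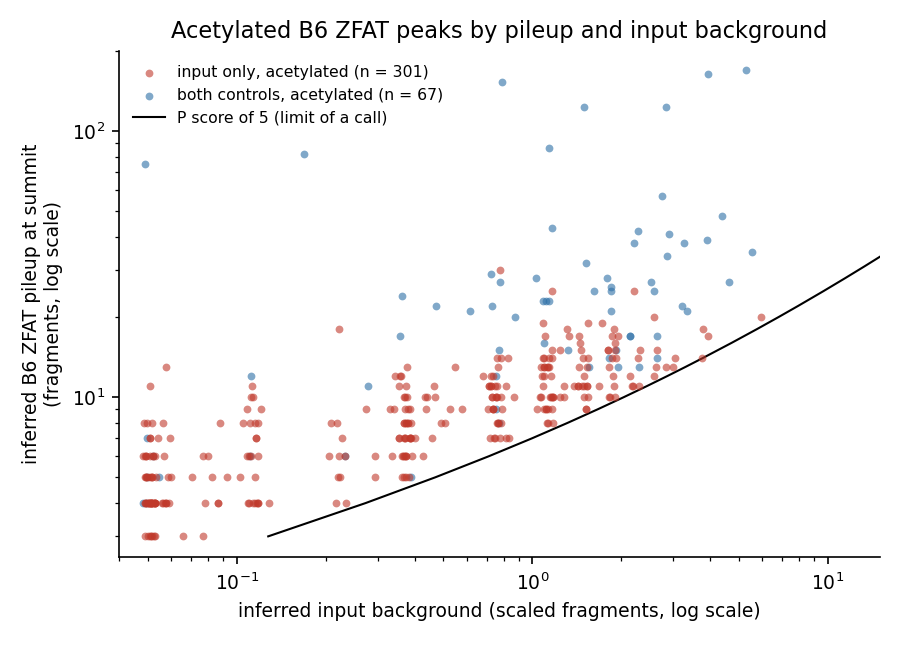
Inferred B6 ZFAT pileup in fragments (y axis, log scale) against inferred input background in scaled fragments (x axis, log scale), 1 point per B6 peak in acetylated chromatin, shifted slightly sideways at random; the line marks a P score of 5, the limit of a call. The 301 peaks called against input only have a median pileup of 8 and lie mostly below the 67 peaks called against both controls with a known pileup, which have a median of 22.

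The lists that played no part in the choice give the independent readouts. A floxed ZFAT peak overlapped 25 of the 301 acetylated input-only peaks, or 8.31% (5.45 to 12.02%), beside 7.3% of all 2000 B6 peaks. With only floxed ZFAT peaks at a P score of at least 10, it was 14 of 301 (4.65%). The share was 65 of 83, or 78.3% (67.9 to 86.6%), in the acetylated peaks called against both controls, and 62 of 83 (74.7%) at that limit. It was 37 of 1409, or 2.63% (1.86 to 3.60%), in the unacetylated input-only peaks and 19 of 207, or 9.18% (5.62 to 13.96%), in the unacetylated peaks called against both. The share of the 301 thus lies near that of the whole B6 list, with an interval above that of the unacetylated input-only peaks and far below that of their acetylated counterparts called against both controls. These shares take all pileups together, and classes of pileup are given below.

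No Lck-Cre ZFAT peak overlapped any of the 301 regions, which allows a share of up to 0.997% (exact interval 0 to 1.22%), beside 1.6% of all 2000 B6 peaks. The nearest Lck-Cre ZFAT peak lay 15930 bp from a region of the group. In the acetylated peaks called against both controls 19 of 83 overlapped an Lck-Cre ZFAT peak, or 22.9% (14.4 to 33.4%). The Lck-Cre list holds only 108 peaks, so it gives little room for overlap anywhere. A count of 0 there does not separate a lost ZFAT signal from a signal that this list would not have recorded.

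H3K9me3, a mark of silenced chromatin, overlapped 5 of the 301 regions, or 1.66% (0.542 to 3.83%), beside 7.3% of all 2000 B6 peaks. It overlapped 2 of 83 acetylated peaks called against both controls, or 2.41%. It overlapped 134 of the 1409 unacetylated input-only peaks, or 9.51% (8.03 to 11.2%). Of all 13016 floxed acetylation peaks, 0.807% overlapped an H3K9me3 peak, so the low share at the 301 regions lies near that of acetylated chromatin at large. The H3K9me3 and floxed acetylation marks were measured in the same genotype.

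**Figure D2:**
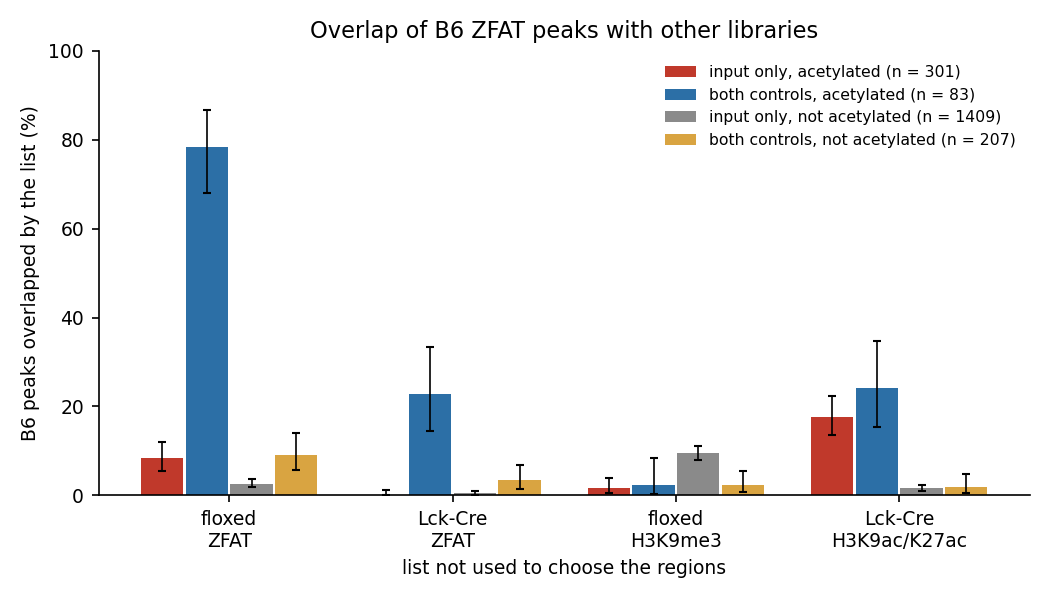
Share of B6 peaks (percent, y axis) that overlap a floxed ZFAT, Lck-Cre ZFAT, H3K9me3 or Lck-Cre H3K9ac/K27ac peak, for the 4 sets of B6 peaks; bars are the shares and lines the exact 95% intervals for counting error. The acetylated input-only peaks stand at 8.31% for floxed ZFAT, against 78.3% for the acetylated peaks called against both controls.

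Pileup differs between the sets, so the floxed ZFAT overlap was also read within classes of B6 pileup. No region of 3 to 5 fragments had a floxed ZFAT peak among 72 acetylated input-only peaks, which allows a share of up to 4.17% (exact interval 0 to 4.99%). The count was 5 of 79 (6.33%) at 6 to 8 fragments and 6 of 92 (6.52%) at 9 to 12. It was 13 of 55 at 13 to 20 fragments, or 23.6% (13.2 to 37.0%), and 1 of 3 above 20. The classes above 12 fragments thus hold 14 of the 25 overlaps and 58 of the 301 regions.

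At 13 to 20 fragments the acetylated peaks called against both controls overlapped floxed ZFAT in 11 of 14, or 78.6% (49.2 to 95.3%). The unacetylated input-only peaks of the same pileup did so in 2 of 76, or 2.63%, although 10 of 11 (90.9%) did so above 20 fragments. At 13 to 20 fragments, the interval of the acetylated input-only peaks (13.2 to 37.0%) therefore did not meet that of the peaks called against both controls, so the gap between those sets remained at like pileup. At 6 to 8 fragments 0 of 5 acetylated peaks called against both controls had a floxed ZFAT peak, and at 9 to 12 fragments 2 of 4 did, too few to set against the 301. In the unacetylated input-only peaks the count was 7 of 720 (0.392 to 1.99%) at 3 to 5 fragments. It was 9 of 406 (1.02 to 4.17%) at 6 to 8 and 9 of 196 (2.12 to 8.54%) at 9 to 12. The intervals of the acetylated input-only peaks in these classes were 0 to 4.99%, 2.09 to 14.2% and 2.43 to 13.7%. At 12 fragments or fewer the intervals of these sets thus overlapped. The 25 overlapping regions and the 276 others also differed in the values that chose them, as given below.

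**Figure D3:**
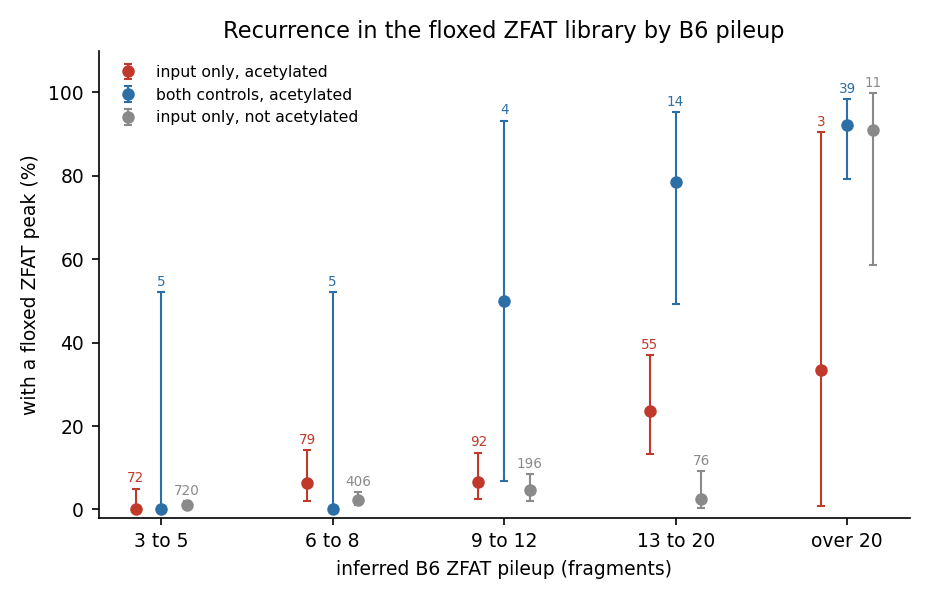
Share of B6 peaks with a floxed ZFAT peak (percent, y axis) by class of B6 pileup in fragments (x axis), with exact 95% intervals for counting error and the number of peaks above each, for the acetylated input-only peaks, the acetylated peaks called against both controls and the unacetylated input-only peaks. At 13 to 20 fragments the shares are 23.6%, 78.6% and 2.63%.

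The 25 regions with a floxed ZFAT peak had a B6 pileup of 7 at the lowest, 13 at the median and 25 at the highest. Their floxed ZFAT pileup was 11, 18 and 45 fragments in the same order, and the floxed fold ran over 2.95 to 24.1 with a median of 5.12. The floxed library was 2.38 times as deep as the B6 library by these estimates. After scaling the B6 pileup by that ratio, it was 1.68 times the floxed pileup at the median, with a lowest ratio of 0.835 and a highest of 2.86, and it was above the floxed pileup at 21 of 25 regions. The 46 acetylated peaks called against both controls with both pileups known gave a median ratio of 1.62 over a range of 0.892 to 3.25, and 43 of them were above 1. Where a floxed peak was called, the B6 and floxed signal thus stood in much the same proportion in both sets. Every such pair passed a call in both libraries, so weak or absent floxed signal is missing from these ratios.

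**Figure D4:**
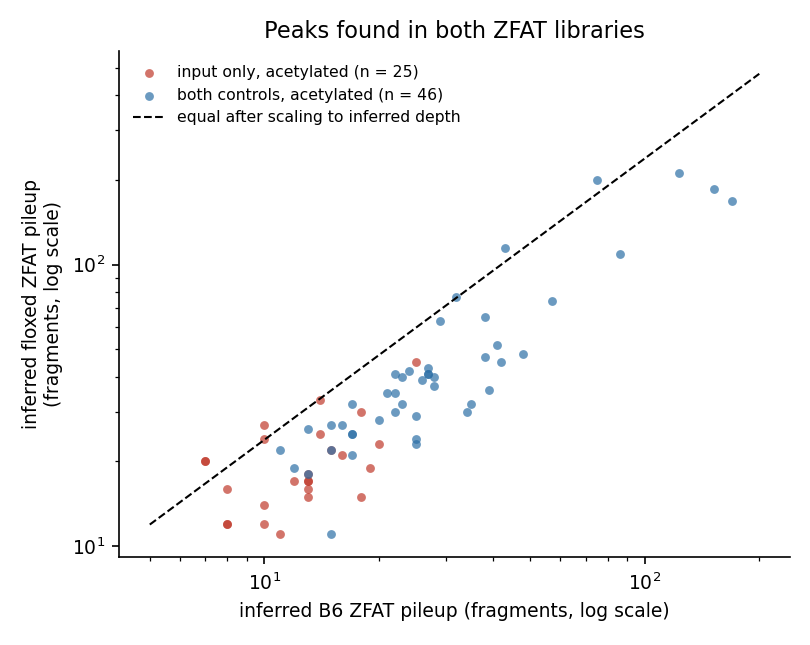
Floxed ZFAT pileup (fragments, y axis, log scale) against B6 ZFAT pileup (fragments, x axis, log scale) at acetylated B6 peaks with a floxed ZFAT peak, for the 25 input-only peaks and the 46 peaks called against both controls with known pileups; the line marks the inferred depth ratio of 2.38. Of the 25 input-only peaks, 21 lie below the line.

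The summits of the B6 and floxed ZFAT peaks lay 3 to 272 bp apart at these 25 regions, with a median of 37 bp, and 15 were within 50 bp. The 25 regions stood in stronger acetylation than the others. The acetylation pileup had a median of 57 fragments at the 25 regions and 38.5 at the 276 others, and the input background had medians of 1.12 and 0.373. The distance from the B6 summit to the acetylation summit had a median of 42 bp at the 25 and 31 bp at the 276. These features move with the overlap, and their part in it was not tested.

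At the floxed depth, many of the other regions would have passed a call had the signal scaled with depth. The 276 regions without a floxed ZFAT peak had a median B6 pileup of 8, which corresponds to 19.1 fragments at the floxed depth. The 443 floxed ZFAT peaks in acetylated chromatin had a median pileup of 14 and a median background of 2.04. At that background the scaled pileup would have passed the caller's p threshold of 1e-05 at 227 of the 276 regions (82.2%), and at 204 with the upper-quartile background of 2.72. With the lower bound of the exact Poisson 95% interval of each B6 pileup in place of the pileup, 106 (38.4%) would have passed. The scaled B6 pileup was also above the floxed pileup at most overlapping regions, and with the B6 pileup divided by their median ratio of 1.68, 154 of the 276 (55.8%) would have passed. The estimate thus depends on the counting error of the B6 pileup and on how its signal scales to the floxed library. It also applies a common background, taken from called floxed peaks, to every region. Each B6 pileup used had passed a call in its own library, which favours high values. Near misses were few: 1 of the 276 regions had a floxed ZFAT peak within 500 bp and 4 had one within 5 kb.

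The IgG level at the 301 regions is not in the lists, since no IgG-called peak lies there. It was read at the peaks called against both controls, where 271 of 272 pairs with known values gave the same pileup in both lists, as they must for one ZFAT library. In the 67 acetylated pairs the IgG background had a median of 1.82 (quartiles 0.908 and 3.18), against a median input background of 1.30. IgG was above input in 45 of these pairs, equal in 3 and below in 19. In the 205 unacetylated pairs both medians were 0.0507, and IgG was above input in 53, equal in 109 and below in 43. In acetylated chromatin the IgG control was thus more often above input, at peaks that were strong enough to be called in spite of it.

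The IgG level that would end each call can be computed from the pileup. For the 301 regions this background was 0.128 at the lowest, 1.32 at the median and 12.7 at the highest. In IgG fragments, each worth 0.454, that is 3 at the median and 1 to 28 over the group. At the median IgG background of the acetylated pairs, 1.82, the call would end at 175 of the 301 regions (58.1%) and would pass at the other 126. The limit was 2.96 times the input background at the median, and under 1.5 times it at 41 regions. A few IgG fragments would thus end most of these calls, while 126 regions would need more IgG than the median of the acetylated pairs. All 301 were chosen as not called against IgG with the same ZFAT library. These counts therefore only set pileups against a reference level and do not show which calls IgG ended. That level comes from pairs with a median input background of 1.30, against 0.373 at the 301 regions. A call can also end when the region shrinks below the minimum length, and 63 of the 301 regions were 160 bp or shorter.

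The share of B6 peaks that were also called against IgG depended on pileup in acetylated chromatin. It is part of the rule and is given as a description. In acetylated chromatin 5 of 77 peaks (6.49%) of 3 to 5 fragments were called against both controls, 5 of 84 (5.95%) of 6 to 8 and 4 of 96 (4.17%) of 9 to 12. The share was 14 of 69 (20.3%) at 13 to 20 fragments and 39 of 42 (92.9%) above 20. In unacetylated chromatin it was 153 of 873 (17.5%), 28 of 434 (6.45%), 10 of 206 (4.85%), 3 of 79 (3.80%) and 11 of 22 over the same classes. At 12 fragments or fewer a B6 peak in acetylated chromatin was thus seldom called against both controls, and above 20 it almost always was.

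The 301 regions overlapped 300 acetylation peaks, with a median P score of 30.4, fold of 9.19, pileup of 41 fragments and length of 348 bp. The 86 acetylation peaks under B6 peaks called against both controls had a median P score of 39.1, pileup of 54 and length of 397.5 bp. All 13016 floxed acetylation peaks had medians of 25.9 for P score, 8.62 for fold, 38 for pileup and 290 bp for length. Over the 10 deciles of acetylation P score the 301 regions touched between 1.39 and 3.07% of the acetylation peaks. The regions were thus spread over weak and strong acetylation, with the highest share in the top decile and the lowest in the third.

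Set against acetylated chromatin at large, floxed ZFAT was more frequent at these regions. Of the 300 acetylation peaks under the regions, 25 overlapped a floxed ZFAT peak, or 8.33% (5.47 to 12.1%), beside 3.43% of all 13016. The share was 68 of 86, or 79.1%, under the peaks called against both controls. It was 355 of 12631, or 2.81%, at acetylation peaks with no B6 input-called peak, and 2.99% when these were weighted to the P score deciles of the 300. The share under the input-only regions was thus 2.79 times the weighted share at acetylation peaks without a B6 peak, and the interval for the 300 lies above the weighted value. By decile, the share under the regions was lower in the weakest decile, at 0 of 30 against 1.34% without a B6 peak. It was also lower in the strongest, at 2 of 40 against 5.78%, and was higher in all the others, on small counts. The acetylation P score, but not the input level or the length of the acetylation peak, was matched in this weighting.

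Lck-Cre acetylation overlapped 53 of the 301 regions, or 17.6% (13.5 to 22.4%), beside 4.95% of all 2000 B6 peaks. With only Lck-Cre acetylation peaks at a P score of at least 10, it was 29 of 301 (9.63%). It overlapped 20 of 83 acetylated peaks called against both controls, or 24.1% (15.4 to 34.7%), and 22 of 1409 unacetylated input-only peaks, or 1.56%. Counted over acetylation peaks, it overlapped 60 of the 300 under the regions, or 20.0% (15.6 to 24.98%), beside 12.3% of all 13016. Among acetylation peaks without a B6 peak the share was 12.03%, and 14.1% when weighted to the deciles of the 300. The Lck-Cre acetylation library was shallower and its list far shorter than the floxed one, so the absence of a Lck-Cre peak at most of the 301 regions cannot be told apart from a peak missed at that depth.

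At the 53 regions with acetylation called in both genotypes, the authors' fold had a median of 4.98 in Lck-Cre and 12.2 in floxed thymocytes. The pileup had a median of 20 fragments in Lck-Cre and 78 in floxed thymocytes. These pileups are not scaled to depth, and the Lck-Cre library was the shallower. The floxed list also chose the regions, which favours high floxed values. Floxed acetylation was stronger at these 53 regions than at the other 248, which had a median floxed acetylation pileup of 36. The B6 ZFAT pileup had a median of 11 at the 53 and 8 at the 248, and 5 of the 53 had a floxed ZFAT peak. The controls of the acetylation lists are not named, so the folds are given side by side only.

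Both sets were chosen by overlap with these acetylation peaks, so the position of the B6 summit on them is given as a description. The B6 summit fell inside a floxed acetylation peak at 293 of the 301 regions, against 80 of the 83 peaks called against both controls. The distance from the B6 summit to the acetylation summit had a median of 34 bp (quartiles 12 and 86, highest 1364) at the 301, against a median of 43 bp (quartiles 11.5 and 167.5, highest 1055) at the 83. It was within 50 bp at 195 regions (64.8%), against 46 (55.4%), and over 150 bp at 55 (18.3%), against 24 (28.9%). The upper quartile and the share over 150 bp were thus larger in the peaks called against both controls, and the longest single distance was among the 301.

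The level of B6 ZFAT signal, acetylation and input moved together over the 301 regions. Spearman's rho was 0.634 between B6 pileup and acetylation pileup, 0.646 between acetylation pileup and input background, and 0.825 between B6 pileup and input background (301 regions). At the 67 acetylated peaks called against both controls it was 0.331, 0.459 and 0.541 in the same order. These are descriptions over regions that share libraries, and a peak on a high background needs a high pileup to be called, which by itself ties pileup to background. The weaker relation at the peaks called against both controls is given without a test.

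**Figure D5:**
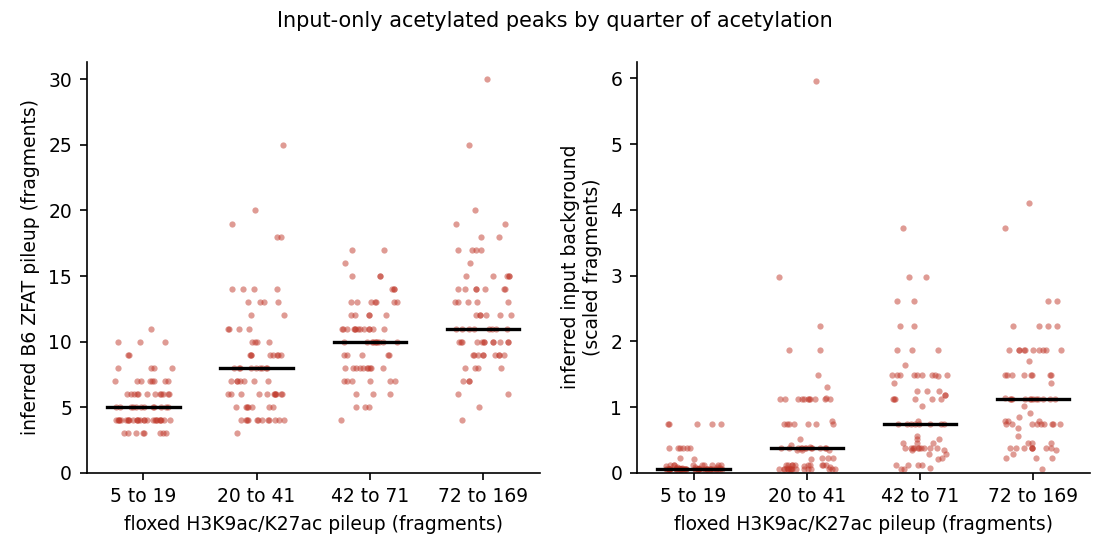
Inferred B6 ZFAT pileup (fragments) and inferred input background (scaled fragments) of the 301 acetylated input-only peaks, in 4 classes of floxed acetylation pileup (x axis, fragments); each point is a region, spread sideways at random, and each bar a median. The median pileup is 5, 8, 10 and 11 and the median background 0.0507, 0.373, 0.745 and 1.12, from the weakest to the strongest acetylation.

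In 4 classes of floxed acetylation pileup of about equal size, at 5 to 19, 20 to 41, 42 to 71 and 72 to 169 fragments, the median B6 pileup was 5, 8, 10 and 11. The median input background over the same classes was 0.0507, 0.373, 0.745 and 1.12, and the median fold over input was 5.13, 5.71, 5.64 and 6.14. The B6 and input signal thus both grew with acetylation. The fold adds 1 to the pileup and to the background, so at these low backgrounds it can rise where a plain ratio falls. Over these classes the median background grew by a larger factor than the median pileup. A plain ratio of these medians would fall at each step. The 0.0507 of the weakest class is the lowest background in the list. Floxed ZFAT peaks did not grow more frequent at every step of acetylation. They overlapped 0 of 76 (which allows up to 3.95%), 7 of 78 (8.97%), 13 of 72 (18.1%) and 5 of 75 (6.67%) regions. Lck-Cre acetylation overlapped 1, 10, 10 and 32 (42.7%) regions over the same classes, most in the strongest acetylation.

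The regions were scattered. Only 4 had another region of the group within 5 kb, and the closest pair lay 208 bp apart. Chromosome 11 held 33, chromosome 2 held 27 and chromosome 7 held 25, and these chromosomes had the most acetylation peaks. The counts did not follow acetylation throughout: chromosome 4 held only 9 regions against 893 acetylation peaks, or 1.01%. The share of acetylation peaks that lay under a region was lowest on chromosome 13, with 2 of 406 (0.493%), and highest on chromosome 3, at 3.47%. Chromosome X held 2 regions against 236 acetylation peaks, or 0.847%.

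Single regions show the range. The strongest with a floxed ZFAT peak was chr11:107331044-107331395, with a B6 pileup of 18 on an input background of 0.227, a fold of 15.5 and a P score of 29.4. Its summit lay 1 bp from the summit of a floxed acetylation peak of fold 9.58, acetylation was also called in Lck-Cre thymocytes at fold 4.34, and the floxed ZFAT pileup was 15 at fold 5.26. It would have taken 13 IgG fragments to end this call. The B6 pileup at this region, scaled to the floxed depth, was 2.86 times the floxed pileup, the highest ratio among the 25.

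The region chr5:65928567-65928720 had a B6 pileup of 25 at fold 8.04 and the highest floxed ZFAT pileup of the 25, 45 fragments at fold 9.06. It lay in a floxed acetylation peak of 1104 bp at fold 20.1, with its B6 summit 324 bp from the acetylation summit. The region chr12:89599002-89599161 had a B6 pileup of 19 at fold 9.44 and a floxed ZFAT pileup of 19 at fold 8.48. Its acetylation peak was short, 166 bp at fold 11.2. These regions have 6 and 3 input fragments at the background, so the ZFAT signal stood on a control level that was not low.

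The other strong regions with a floxed ZFAT peak lay on chromosome 2. At chr2:14976952-14977174 the B6 pileup was 10 at fold 9.88, and the floxed ZFAT pileup was 12 at fold 3.49. At chr2:29108003-29108169 the B6 pileup was 18 at fold 8.25, and the floxed ZFAT pileup was 30 at fold 4.35. Their acetylation folds were 14.8 and 9.58. Neither had a Lck-Cre acetylation peak.

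The strongest of all 301 regions, chr5:24191816-24192034, had no floxed ZFAT peak. Its B6 pileup was 30 on an input background of 0.745, at fold 17.8 and a P score of 38.2. Its acetylation pileup, not scaled to depth, was 21 in Lck-Cre and 96 in floxed thymocytes. Scaled to the floxed depth its pileup was 71.5, which would have passed at any floxed background up to 41.4. It would have taken 28 IgG fragments to end its B6 call. A B6 signal of this size without a floxed or an IgG-called peak is the widest gap between lists in the group, and its source was not tested.

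At chr11:3027473-3027650, also without a floxed ZFAT peak, the B6 pileup was 25 at fold 12.3 in an acetylation peak of only 158 bp at fold 4.14. This region also overlapped an H3K9me3 peak of fold 3.93 with a pileup of 31. Signal in B6 ZFAT, H3K9ac/K27ac and H3K9me3 was thus called in the same short stretch. At chr6:113327469-113327734 the B6 pileup was 13 at fold 13.2 with almost no input (background 0.0566), 3 bp from an acetylation summit of fold 25.04. At chr8:74685359-74685633 and chr7:53641251-53641470 the B6 pileup was 11 at folds 11.4 and 10.8, in acetylation of folds 15.7 and 10.1.

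The other H3K9me3 regions named by rank were weaker. At chr12:108986278-108986472 the B6 pileup was 7, the acetylation pileup 7 and the H3K9me3 pileup 5. At chr10:42570820-42570979 they were 4, 8 and 5. Both regions thus had few fragments in these 3 libraries.

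The highest input background of the group was at chr10:79423000-79423245, with a B6 pileup of 20 on a background of 5.96 (16 input fragments) and a fold of 3.02. A floxed ZFAT peak was called there with a pileup of 23 at fold 10.8, on a floxed background of only 1.22. At chr10:122633628-122633888 the B6 pileup was 17 on a background of 4.10, and at chr6:70741890-70742102 it was 14 on 3.73, and neither had a floxed ZFAT peak. The last of these also had the lowest P score, 5.05. A region with a high B6 input level could thus have a low control level, and a called ZFAT peak, in the floxed library.

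At the next lowest P score 3 regions tied, chr14:58617696-58618029, chr16:35769333-35769486 and chr17:36016801-36017082, and each had a P score of 5.37 with a B6 pileup of 10 on a background of 1.86. The chromosome 17 region overlapped a floxed ZFAT peak with a pileup of 14 at fold 6.36, and the other two did not. The chromosome 14 region falls outside the number named by rank and was added because of the tie. The highest acetylation P scores in the group lay under chr5:65194018-65194176 (219.8, at fold 39.4), chr10:110447213-110447501 (112.7, at fold 26.4) and chr7:26539366-26539707 (110.9, at fold 16.3). Their B6 pileups were 12, 14 and 18 at folds of 6.14, 4.64 and 6.64, and none had a floxed ZFAT peak. The B6 summits of the first pair lay 799 and 521 bp from the acetylation summit, in acetylation peaks of 1630 and 1004 bp.

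Just inside the overlap limit, the region at chr11:84632670-84632821 shared 8 bp with acetylation and had a pileup of 13, and chr12:29334395-29334584 shared 54 bp and had a pileup of 4. Just outside it, the input-only peak at chr7:119369082-119369352 lay 13 bp from acetylation with a pileup of 5, and chr7:138506637-138506791 lay 68 bp away with a pileup of 3. In all, 13 input-only peaks lay within 500 bp of acetylation without overlap, and 0 of them had a floxed ZFAT peak, which allows a share of up to 23.1%. On the IgG side, the nearest region lay 196 bp from an IgG-called peak (chr12:75009450-75009792) and the next 665 bp (chr11:23156142-23156367), so few regions sat close to that limit.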

How the data were processed

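The deposited lists hold peaks in mm9 with start, end and summit positions, called per library. Per the file headers, the P and Q scores are −log10 values and the fold change is the ratio of ChIP to local control; all were used as the authors' own values within a list, and the Q score was not used. Per the submitters' processing notes, CASAVA 1.8.1, Trimmomatic 0.22 and SAMtools 0.1.18 were used, and MACS for the B6 samples. For the aligner, no name is given in the sources used here. The fragment length was 150 bp, the genome size 1870000000 bp, the p threshold 1e-05, the enrichment limits 5 and 1000, and the padding 5000 bp, per the file headers. The lower enrichment limit did not filter the deposited fold, since 821 of the 2000 B6 peaks lay under 5. The control is named for the B6 lists only. Pooled animals and duplicate removal are not stated.

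Overlap means 1 bp or more. Pileup and background were recovered as the whole pileup and the background that give both the fold, (pileup + 1)/(background + 1), and the Poisson P score within 0.0001; at the P score ceiling of 323.3 they are unknown. Background was within 0.1% of a whole number of control fragments at the summit at 564 of 1982 input-called and 107 of 410 IgG-called B6 peaks. With averages of wider windows and the lowest level of the list also allowed, all 1982 and all 410 matched a whole number or that level. Depth was inferred from the lowest background of a list. A count of 0 allows a share of 3 counts of the total. This limit is lower than the upper end of the exact interval, which the figures draw and which is 1.22% for 0 of 301. Python 3.11.15, pandas 2.3.3, numpy 2.4.6, scipy 1.17.1 and matplotlib 3.10.9 were used.

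Named regions were taken by P score: the 5 strongest with and the 5 strongest without a floxed ZFAT peak, the 3 with the highest input background, the 3 with the strongest acetylation, the 3 weakest, up to 3 with H3K9me3, and those at the limits of the choice. The regions, sets and classes were chosen with earlier results of these data known. No genome or annotation of mm9 was used here, so no sequence, search string or gene start is given.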

Additional observations from a re-analysis of the deposited data

How the results depend on the processing

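Of 48 values recomputed under 7 alternatives, 43 stayed within their error or within 1.5 times the count given, and 5 moved. The count of 43 overstates stability. Leaving out input backgrounds of 20 or more, or keeping only chromosomes 1 to 19, X and Y, removed none of the 301 regions, so those values could not move. The count of 0 Lck-Cre ZFAT overlaps could not rise either, since every alternative only removes peaks or overlaps. A minimum P score of 10 for B6 peaks left 116 regions of 301, with a median distance to the acetylation summit of 23.5 bp and a median pileup of 10. A minimum P score of 10 in the other list gave a floxed ZFAT share of 4.65% (14 of 301) and a Lck-Cre acetylation share of 9.63% (29 of 301). Under the same limit, chosen after seeing the data, the floxed ZFAT share of the acetylated peaks called against both controls was 74.7% (62 of 83). The scaling of the B6 pileup by the ratio at overlapping regions was also chosen after seeing the data. The cause was not tested. No paired analysis was possible because each ChIP group had 1 library and no result comes from a test; for the same reason no replicate could be left out. The search-string and gene-start results were not run. Low pileups limit every value: 204 of the 301 regions rest on 10 fragments or fewer at the summit.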

Other observations

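The mirror set, called against IgG and not against input in acetylated chromatin, held 47 of the 137 IgG-called B6 peaks that had no input-called peak. Their pileup had a median of 7 fragments (4 to 17), with a median IgG background of 0.414 and a median fold of 5.61, and their median length was 167 bp. A floxed ZFAT peak overlapped 4 of the 47, or 8.51% (2.37 to 20.4%), near the 8.31% of the 301 acetylated input-only peaks. No Lck-Cre ZFAT peak overlapped any of them, which allows a share of up to 6.38%, and 1 overlapped H3K9me3. Lck-Cre acetylation overlapped 5 of the 47 (10.6%). Either control thus left a set of acetylated B6 peaks that the other did not call, with floxed ZFAT shares whose intervals overlap.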
